A study of Mus musculus with 12 samples.

Results

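Genes of the matrix metalloproteases (MMPs), the ADAM and ADAMTS proteases, the ADAMTS-like proteins and the tissue inhibitors of metalloproteases (TIMPs) were followed in mouse hearts that lack MRPP3. They were taken by name, as every locus listed under a gene symbol made of Mmp, Adam, Adamts, Adamtsl or Timp followed by a number. This gave 84 of the 44450 listed loci, made up of 23 Mmp, 33 Adam, 19 Adamts, 5 Adamtsl and 4 Timp loci. Total RNA of hearts from 11-week-old C57BL/6N mice was sequenced in 3 knockout libraries (Mrpp3 loxP/loxP, +/Ckmm) and 3 control libraries (Mrpp3 loxP/loxP without the Ckmm allele), so both groups carry the loxP-flanked gene. MRPP3 is the subunit of mitochondrial RNase P that cuts precursor RNAs. As background, the Ckmm allele places Cre recombinase under the muscle creatine kinase promoter, which is active in striated muscle, so the fibroblasts, vessels and immune cells of the heart are not its targets. Only the knockouts carry Cre, so its effect and that of the deletion cannot be told apart.

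MMPs, ADAMs and ADAMTS proteases are zinc-dependent enzymes made as inactive precursors. MMPs cut collagens, gelatin and other matrix proteins, ADAMs release growth factors, cytokines and receptors from cell surfaces, and ADAMTS proteases trim procollagens and cut proteoglycans such as versican. TIMPs block MMPs by filling the active site, and TIMP3 also blocks several ADAMs and ADAMTS proteases. In the heart this balance sets the turnover of the collagen network, and it is known to change during injury and remodelling.

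A short stretch of promoter is shown for Timp1, the inhibitor that rose, and for Mmp3, a protease whose promoter is a textbook example of an AP-1 site. Each holds 250 bases before and 50 bases from the gene start, on the plus strand of GRCm38.p6 (RefSeq), at chrX:20869916-20870215 for Timp1 and chr9:7445572-7445871 for Mmp3. Capitals mark a match to the AP-1 heptamer TGANTCA in Mmp3 and a variant of it, TGAGTAA, in Timp1.
Timp1: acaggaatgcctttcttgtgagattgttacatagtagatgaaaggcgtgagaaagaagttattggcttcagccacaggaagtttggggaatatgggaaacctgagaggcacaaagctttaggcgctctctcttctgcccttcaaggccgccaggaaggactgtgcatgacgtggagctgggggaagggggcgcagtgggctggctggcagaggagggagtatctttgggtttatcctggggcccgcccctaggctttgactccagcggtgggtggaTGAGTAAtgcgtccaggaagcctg
Mmp3: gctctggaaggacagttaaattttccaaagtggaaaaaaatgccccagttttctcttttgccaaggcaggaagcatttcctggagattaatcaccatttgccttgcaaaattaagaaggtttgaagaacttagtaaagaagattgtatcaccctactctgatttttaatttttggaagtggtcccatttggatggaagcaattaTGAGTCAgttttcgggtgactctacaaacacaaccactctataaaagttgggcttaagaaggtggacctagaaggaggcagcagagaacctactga
The heptamer TGANTCA, read on both strands, was found in 7.81% of 32851 RefSeq promoter windows of this length. Among the 26 tested members with such a window it was found in Mmp3, where it starts 46 bases before the gene start, and in Adam19. The variant TGAGTAA or its reverse complement TTACTCA was in 2.68% of windows. Of the 26 it was in 1, Timp1, where it starts at base 27 of the gene. It was searched for after the Timp1 sequence had been read, so its match there was fixed in advance. A composite ATF4 motif, TGATGNAA or TTNCATCA on the other strand, was in 3.97% of windows and in 0 of the 26. Each window shown holds 1 of these matches, so no matches overlap. A match is a description of the sequence and not of binding.

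Levels are given in FPKM, which divides fragments by transcript length and by the fragments mapped in the library, so levels of different genes can be set side by side. Of the 84 loci, 36 reached 1 FPKM in at least 3 of the 6 libraries and were tested. Another 21 were at 0 in every library and 27 were listed above 0 but below that level. Gene positions are those of RefSeq on GRCm38.p6. Fold changes are log2 values, knockout over control, of FPKM + 0.5, which understates the change of low genes. They were tested with limma over 12181 loci, and a gene is said to rise or fall where the Benjamini-Hochberg adjusted p was under 0.05. Over all tested loci 35.7% passed, 16.1% higher and 19.5% lower in the knockout. Among the 36 tested members 8 rose and 5 fell, 36.1% in all. That is next to the share of all loci, and the count is no result about these genes as a set. The median log2 fold change was 0.18 over the 36 members and -0.02 over all tested loci. When each library was scaled to the same summed FPKM the median of all loci moved to 0.20 and the members split into 11 higher and 3 lower.

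The deleted gene, listed as 1110008L16Rik and now called Prorp, had 0.441, 0.701 and 0.555 FPKM in knockouts, against 3.49, 2.64 and 3.23 in controls (log2 fold change -1.77, SE 0.17, limma adjusted p = 0.00063). The files give no read totals. Steps between the lowest values placed the knockout libraries at 2.57, 2.06 and 2.19 times the depth of control replicate 1, and the other controls at 1.32 and 1.35 times, so levels near 0 are less certain in controls. Knockout replicate 2 stood apart in atrial and blood transcripts, and knockout replicate 1 held fewer atrial ones. Of the 5 atrial muscle genes listed, Myl7 had 43.5, 911 and 0.0961 FPKM in knockouts and at most 1.90 FPKM in controls. Myl4 and Sln were also highest in knockout replicates 2 and 1. Bmp10 had 0.785, 386 and 4.19 FPKM in knockouts and at most 0.0577 FPKM in controls, with replicate 3 above replicate 1. Nppa, which stressed ventricles also make, had 1948, 10527 and 2327 FPKM in knockouts, against 56.4, 40.6 and 119.5 in controls and supplied nearly all of the atrial sum in knockout replicates 1 and 3. The summed level of 5 blood genes was 21890 FPKM in knockout replicate 2, 622 and 2010 FPKM in the other knockouts and 1572 to 2902 FPKM in controls. Ventricular muscle genes marked all libraries as heart, with summed levels of 12810, 6000 and 13000 FPKM in knockouts and 27540 to 33050 FPKM in controls. Of these genes 4 of 5 fell. Myl2 had 4897, 662 and 4683 FPKM in knockouts, and Myl3 was likewise lowest in replicate 2, while Myh6 was not. Macrophage markers were higher in the knockout, with 6 of 7 risen and summed levels of 196 to 215 FPKM against 134 to 147 FPKM in controls. Itgam, 1 of the 6, was tested only because the knockouts reached 1 FPKM, so a difference was built in. All marker counts given here stand beside 16.1% higher and 19.5% lower among all loci. Among 9 fibroblast markers 4 rose and 1 fell, with sums of 561 to 897 FPKM in knockouts and 713 to 891 FPKM in controls. None of 6 endothelial markers passed the test, and of 5 smooth muscle and pericyte markers 1 rose and 1 fell. Of 7 neutrophil and mast cell markers 3 were tested and 0 passed. The neutrophil gene S100a8 had 0.109, 2.97 and 3.82 FPKM in knockouts, against 0.558, 1.06 and 0.207 in controls, S100a9 and Cxcr2 were likewise highest in knockout replicates 2 and 3, and Ly6g was at 0 in every library but knockout replicate 2. The part of these shifts in the results below was not tested. In whole hearts fewer cells of a type and less RNA per cell cannot be told apart.

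The inhibitors did not move as one. Timp1 rose, and Timp2, Timp3 and Timp4 did not pass the test. Timp1, which encodes an inhibitor induced in injured and inflamed tissue, had 11.6, 8.57 and 5.51 FPKM in knockouts, against 1.12, 1.61 and 1.02 in controls. The groups were far apart, and mean Timp1 was 6.86 times the control mean (log2 fold change 2.33, SE 0.26, limma adjusted p = 0.001). Timp3 encodes the inhibitor that stays bound to the matrix, and it was the most abundant of the 4. It had 50.1, 93.9 and 39.3 FPKM in knockouts, against 35.1, 35.8 and 31.0 in controls. All knockouts lay above all controls, but knockout replicate 2, the library with the high atrial transcripts, held by far the highest value, and Timp3 did not pass (log2 fold change 0.74, SE 0.30, limma adjusted p = 0.088). Without that library its log2 fold change was 0.38 (adjusted p = 0.071), and without knockout replicate 3 it was 1.01 and passed (adjusted p = 0.028).

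Timp4 is known as the inhibitor most typical of heart muscle. It had 3.89, 1.04 and 15.2 FPKM in knockouts, against 13.7, 18.0 and 20.0 in controls. The knockouts disagreed, since replicate 3 lay within the range of the controls while replicate 2 was far below it, and Timp4 did not pass (log2 fold change -1.89, SE 0.73, limma adjusted p = 0.08). Its log2 fold change was -2.75 without knockout replicate 3, where it passed (adjusted p = 0.0056), and -1.08 without knockout replicate 2 (adjusted p = 0.13). Among knockouts Timp4 was lowest in replicate 2, where each atrial gene listed above was highest. Myl7, Myl4 and Sln were lowest in replicate 3, where Timp4 was highest, but Nppa and Bmp10 were lowest in replicate 1. The summed level of the ventricular muscle genes was also lowest in replicate 2. The part of atrial tissue or of ventricular muscle in Timp4 was not tested. Timp2, whose product also helps MMP14 to activate MMP2, had 16.4, 24.2 and 18.7 FPKM in knockouts, against 20.4, 16.9 and 16.1 in controls. The groups overlapped (log2 fold change 0.14, limma adjusted p = 0.56), and its log2 fold change turned to -0.01 without knockout replicate 2.

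Within the inhibitor pool the Timp1 share was higher in every knockout than in every control. Timp1 supplied 14.2, 6.71 and 6.99% of the summed Timp FPKM in knockouts, against 1.60, 2.22 and 1.50% in controls. Timp4 supplied 4.74, 0.815 and 19.3% in knockouts, against 19.4, 24.9 and 29.4% in controls. Timp3 stayed the largest share in every library, with 61.1, 73.5 and 50.0% in knockouts and 49.9, 49.6 and 45.5% in controls. Timp1 was thus the smallest part in each control and exceeded Timp4 in knockout replicates 1 and 2 but not in replicate 3.

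**Figure D1:**
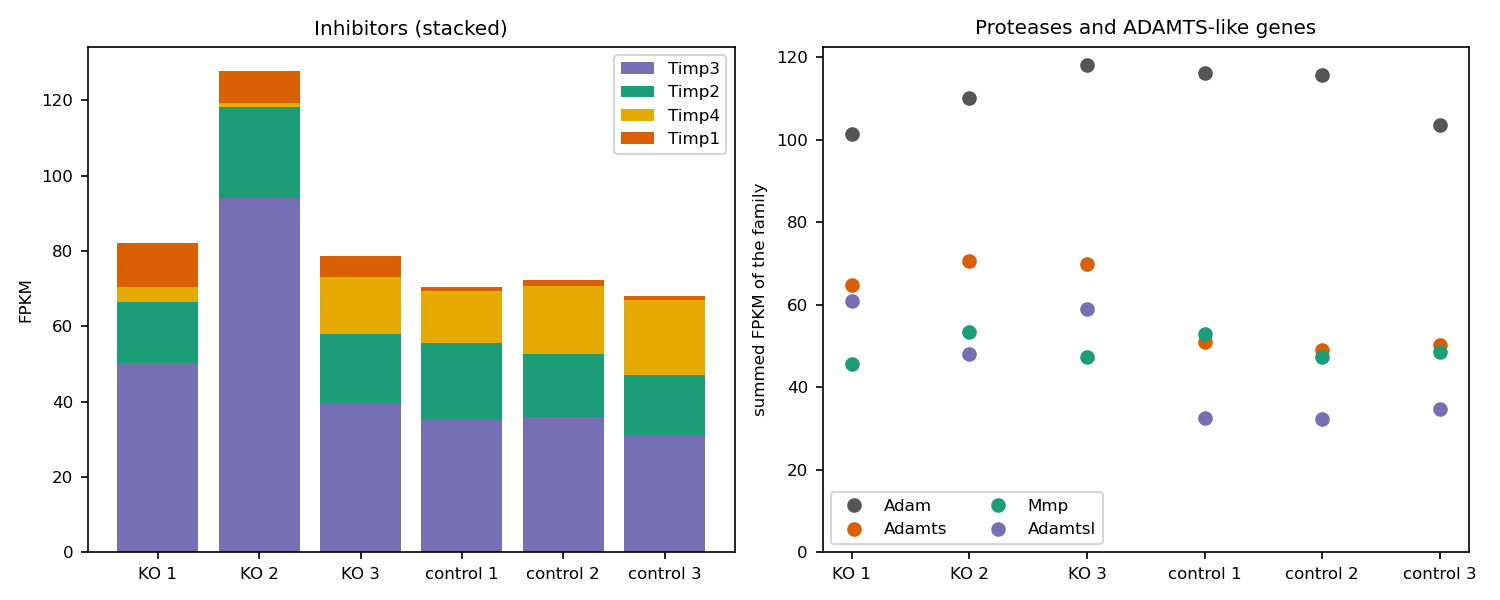
Left, stacked bars of the FPKM of the 4 Timp genes in each library (KO, knockout); right, points of the summed FPKM of the Adam, Adamts, Mmp and Adamtsl families in each library. The summed Timp level was highest in knockout replicate 2. The Adamts and Adamtsl sums lay higher in every knockout than in every control, while the Mmp and Adam sums overlapped. Most of the Adamtsl difference lay in Adamtsl2.

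Set against the proteases, the inhibitors gave ratios that overlapped between knockouts and controls, with 1 knockout library far above the rest. The summed FPKM of the 4 Timp genes was 82.1, 128 and 78.7 in knockouts, against 70.4, 72.3 and 68.1 in controls. The sum over all Mmp, Adam and Adamts loci was 212, 234 and 236 FPKM in knockouts, against 220.3, 212 and 202 FPKM in controls. A sum without the merged Adam1a and Mapkapk5 locus, described below, was added after seeing the data. It was 182.3, 206.3 and 199.7 FPKM in knockouts, against 178.6, 165.7 and 165.6 in controls, without overlap. With all loci kept, inhibitors over proteases gave ratios of 0.387, 0.545 and 0.334 in knockouts and 0.320, 0.341 and 0.336 in controls. The means were 0.422 ± 0.110 in knockouts and 0.332 ± 0.0112 in controls (SD, n = 3 each), and the groups overlapped. The difference of 0.0900 became 0.0285 without knockout replicate 2. With the Mmp genes alone as proteases the ratios were 1.79, 2.39 and 1.66 in knockouts and 1.33, 1.52 and 1.40 in controls, and the groups did not overlap. As the genes were chosen with these data known, no p-value is given for such sums. In counts, 1 of 4 inhibitors rose and 0 fell. Of the 28 tested Mmp, Adam and Adamts loci 6 rose and 5 fell, 39.3% in all beside 35.7% of all loci. Nothing is read from these counts. The 28 include the merged locus and the non-enzymatic Adam11, Adam22 and Adam23, and Adam11 and Adam22 are among those that fell.

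In the MMP family Mmp23 rose and Mmp15 fell, and the sum of the family overlapped between the groups. Of 7 tested members 1 rose, 1 fell and 5 did not pass, and the summed Mmp FPKM was 45.8, 53.5 and 47.5 in knockouts, against 53.0, 47.4 and 48.7 in controls. Mmp15 (chr8:95352296-95374293), which encodes the membrane-anchored enzyme MT2-MMP, had 6.72, 8.98 and 2.64 FPKM in knockouts, against 20.2, 17.7 and 18.2 in controls. It was the most abundant Mmp in every control and ranked below Mmp2 in every knockout, with no overlap (log2 fold change -1.68, SE 0.37, limma adjusted p = 0.012). Mmp23 (chr4:155650655-155654539), which encodes a membrane-bound MMP without a hemopexin domain, had 8.46, 9.40 and 7.42 FPKM in knockouts, against 4.76, 5.02 and 3.67 in controls. Every knockout exceeded every control (log2 fold change 0.85, SE 0.15, limma adjusted p = 0.0055).

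The other tested MMPs are known for matrix breakdown. Mmp2, gelatinase A, had 17.7, 13.9 and 19.7 FPKM in knockouts, against 15.3, 13.3 and 14.9 in controls, with overlapping groups (log2 fold change 0.22, limma adjusted p = 0.29). Mmp14 encodes MT1-MMP, a collagenase that also activates MMP2, and it had 5.11, 9.81 and 5.72 FPKM in knockouts, against 4.20, 3.92 and 4.37 in controls. The knockouts all exceeded the controls, most of all replicate 2, but Mmp14 did not pass (log2 fold change 0.61, limma adjusted p = 0.071). With knockout replicate 1 left out it passed, at a log2 fold change of 0.78 (adjusted p = 0.045). Mmp2 and Mmp14 both passed after scaling to equal sums, at log2 fold changes of 0.45 and 0.85 (adjusted p = 0.043 and 0.035), beside the shift of all loci given above.

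Mmp3, stromelysin-1, whose AP-1 heptamer is shown above, had 1.34, 2.84 and 3.23 FPKM in knockouts, against 1.26, 2.24 and 1.43 in controls. Its groups overlapped (log2 fold change 0.44, limma adjusted p = 0.29). Mmp11, an MMP that furin activates inside the cell, had 2.50, 3.08 and 3.88 FPKM in knockouts, against 3.37, 1.86 and 3.83 in controls (log2 fold change 0.08, limma adjusted p = 0.83). Knockout replicate 1 was its lowest knockout and control replicate 2 its lowest control, and the groups overlapped. The log2 fold change of Mmp11 was -0.06 without knockout replicate 3 and -0.18 without control replicate 2. Mmp28, or epilysin, an MMP of skin and other epithelia, had 1.09, 1.98 and 2.37 FPKM in knockouts, against 1.35, 1.33 and 0.630 in controls (log2 fold change 0.52, limma adjusted p = 0.2), again with overlap.

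The classic interstitial collagenases and the neutrophil and macrophage MMPs were close to 0 in both groups. A cluster of 10 Mmp genes lies on chromosome 9 between 7272514 and 7699585 (GRCm38.p6), and only Mmp3 among them was tested, with 5 of the 10 at 0 in every library. Mmp13, a collagenase, had 0.0326 to 0.242 FPKM in knockouts and 0.0530 to 0.321 in controls, and Mmp8, the neutrophil collagenase, had 0.0455 to 0.161 FPKM in knockouts and 0 to 0.0296 in controls. Mmp9, gelatinase B of neutrophils and macrophages, had 0.0756 to 0.457 FPKM in knockouts and 0.149 to 0.221 in controls. Mmp12, macrophage elastase, had 0.254 to 0.503 FPKM in knockouts and 0 to 0.211 in controls. Both Mmp8 and Mmp12 were higher in each knockout than in each control. Their levels were too low for the test and the controls were shallower, so nothing is read from that. Mmp8, Mmp9, Mmp12 and Mmp13 stayed under 1 FPKM in every library, and whether they followed the macrophage markers given above was not tested.

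**Figure D2:**
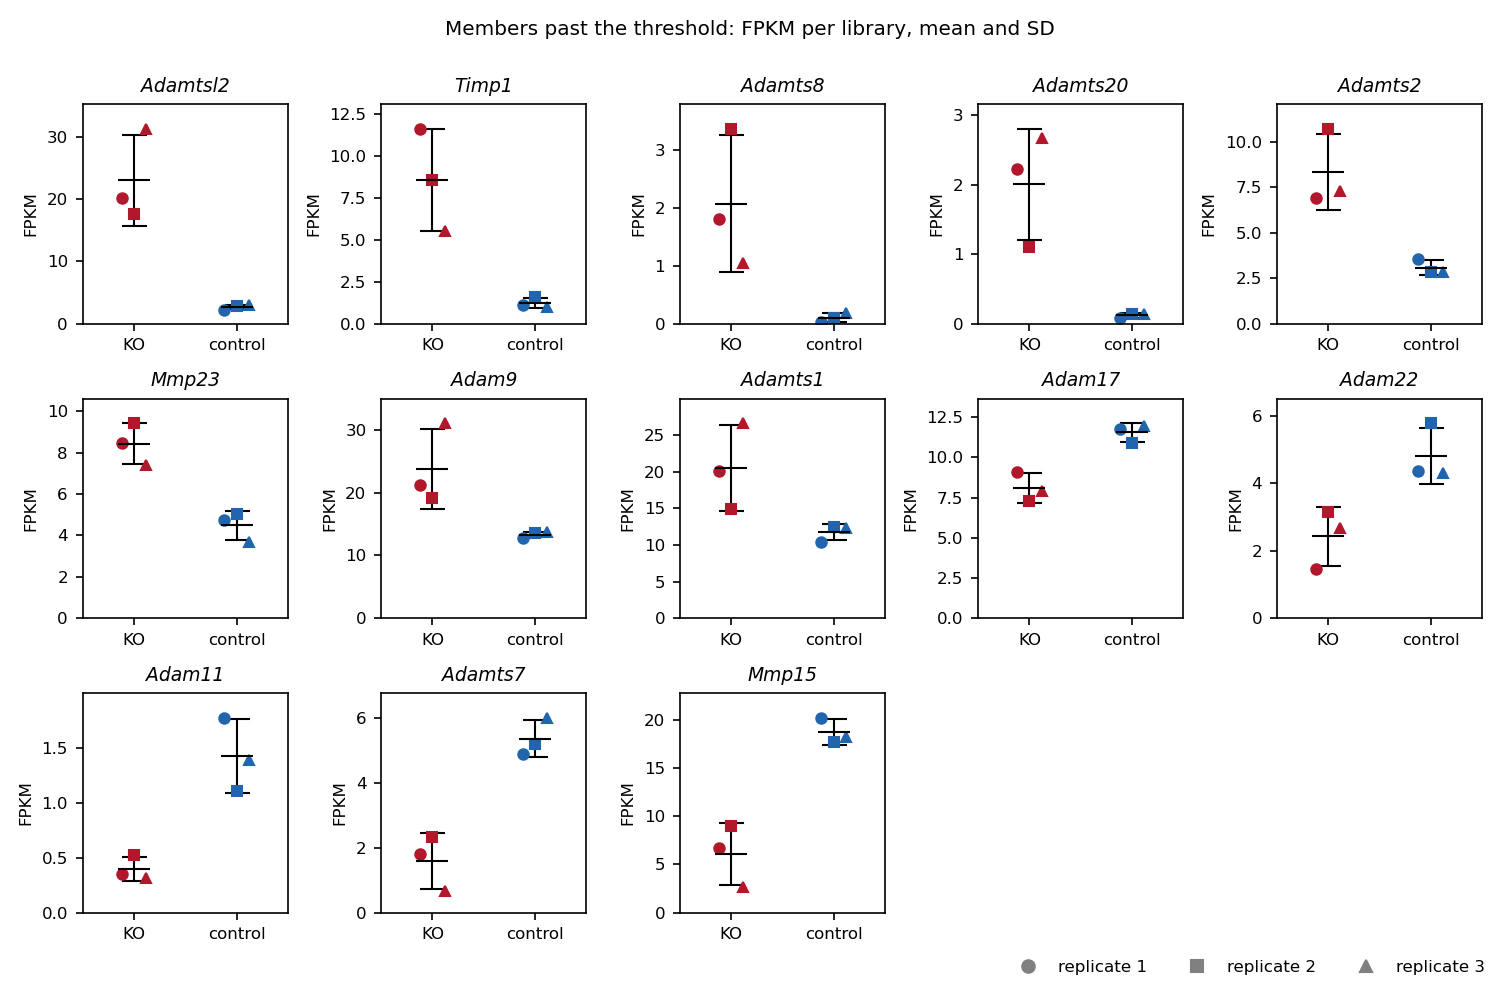
FPKM of the 13 genes past the threshold in each knockout (KO, left) and control (right) library, with the group mean and SD as black bars and a marker shape per replicate. Adamtsl2, Timp1, Adamts8, Adamts20, Adamts2, Mmp23, Adam9 and Adamts1 were higher in every knockout, and Adam17, Adam22, Adam11, Adamts7 and Mmp15 were lower in every knockout. The genes were chosen by passing the test, so this separation was largely built in.

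Among the ADAMTS genes Adamts1, Adamts2, Adamts8 and Adamts20 rose and Adamts7 fell, and the other 6 of 11 tested did not pass. These 5 calls are 45.5% of the tested family, beside 35.7% of all loci, and 2 of them entered the test only through the knockouts, so nothing is read from the share. Summed over all 19 loci, Adamts FPKM was 64.7, 70.6 and 70.0 in knockouts, against 51.1, 48.9 and 50.4 in controls, with no overlap. Adamts1, Adamts8 and Adamts20 cut versican or related proteoglycans, and Adamts2 is a procollagen protease. Adamts1 (chr16:85793827-85803113), an abundant proteoglycan-cutting member, had 20.0, 15.0 and 26.6 FPKM in knockouts, against 10.5, 12.4 and 12.4 in controls. Every knockout exceeded every control (log2 fold change 0.75, SE 0.21, limma adjusted p = 0.028), although the call was lost without any one control (adjusted p = 0.093, 0.068 and 0.068 for replicates 1 to 3), without knockout replicate 1 (0.068) and with no filter on low values (0.057).

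Adamts8 and Adamts20 were close to 0 in control hearts and above 1 FPKM in each knockout. Adamts8 (chr9:30942562-30963838) had 1.81, 3.37 and 1.04 FPKM in knockouts, against 0.0262, 0.0975 and 0.192 in controls (log2 fold change 2.00, SE 0.34, limma adjusted p = 0.0045). Adamts20 (chr15:94268314-94432074), known from mouse coat-colour mutants in which versican is cut less, had 2.23, 1.11 and 2.66 FPKM in knockouts, against 0.0799, 0.139 and 0.138 in controls (log2 fold change 1.96, SE 0.28, limma adjusted p = 0.0023). The ratio of mean FPKM was 19.7 for Adamts8 and 16.8 for Adamts20, with control values of under 0.2 FPKM in shallower libraries. Both genes were tested only because the knockouts reached 1 FPKM, so a difference was built into their passing the filter. Other proteoglycan-cutting members did not pass. Adamts5, a major aggrecan-cutting enzyme, had 3.87, 2.75 and 5.74 FPKM in knockouts, against 5.25, 4.06 and 4.48 in controls (log2 fold change -0.19, limma adjusted p = 0.57), and its fold change turned to 0.04 without knockout replicate 2. Adamts9, which also cuts versican, had 11.0, 8.36 and 10.7 FPKM in knockouts, against 9.01, 8.77 and 9.62 in controls, with overlap (log2 fold change 0.12, limma adjusted p = 0.53). Adamts15 had 1.45 to 2.07 FPKM in knockouts and 1.57 to 2.06 in controls (log2 fold change 0.05, limma adjusted p = 0.84). Adamts4 stayed below the level for testing, at 0.172 to 0.639 FPKM in knockouts and 0.416 to 0.536 in controls.

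Adamts2 (chr11:50602085-50807573) encodes the enzyme that removes the amino-terminal propeptide of fibrillar procollagens. It had 6.94, 10.7 and 7.31 FPKM in knockouts, against 3.58, 2.87 and 2.83 in controls, 2.69 times the control mean, with the groups well apart (log2 fold change 1.28, SE 0.19, limma adjusted p = 0.0025). The other procollagen proteases did not pass or were not tested, with Adamts3 at 1.99 to 2.64 FPKM in knockouts and 2.06 to 3.20 in controls (log2 fold change -0.17, limma adjusted p = 0.5) and Adamts14 at 0.228 to 0.262 FPKM in knockouts and 0.172 to 0.323 in controls, too low to test. Col1a1, a fibrillar collagen chain whose precursor ADAMTS2 trims and 1 of the 9 fibroblast markers above, had 25.4, 37.8 and 14.3 FPKM in knockouts, against 6.90, 5.80 and 4.42 in controls and rose (log2 fold change 2.00, limma adjusted p = 0.0041). Of the other fibroblast markers Col3a1, Postn and Tcf21 rose, Gsn fell, and Dcn, Dpt, Lum and Pdgfra did not pass. The Col3a1 call did not hold when any single control was left out (adjusted p = 0.077, 0.094 and 0.10 for replicates 1 to 3).

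Adamts7 (chr9:90162904-90200102), which cuts cartilage oligomeric matrix protein, was the only ADAMTS gene that fell. It had 1.80, 2.33 and 0.658 FPKM in knockouts, against 4.90, 5.20 and 6.02 in controls, with knockout replicate 3 lowest (log2 fold change -1.58, SE 0.31, limma adjusted p = 0.0082). Adamts10, which binds fibrillin and has little protease activity of its own, had 9.51, 17.8 and 8.13 FPKM in knockouts, against 8.58, 7.13 and 8.18 in controls, where knockout replicate 2 was high and replicate 3 lay among the controls (log2 fold change 0.46, limma adjusted p = 0.21). Adamts6 had 1.33 to 1.95 FPKM in knockouts and 0.972 to 1.16 in controls, without overlap, and did not pass (log2 fold change 0.40, limma adjusted p = 0.13). It was tested only because the knockouts reached 1 FPKM, which control replicate 3 alone among the controls did, so a difference was built in. Among the untested members Adamts19 had 0.218 to 1.16 FPKM in knockouts and 0.118 to 0.180 in controls, without overlap. Adamts12 had 0.478 to 1.02 FPKM in knockouts and 0.657 to 0.944 in controls. Adamts17 had 0.0789 to 0.430 FPKM in knockouts and 0.235 to 1.72 in controls, with control replicate 1 far above the other libraries.

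The ADAMTS-like proteins share the ancillary domains of the ADAMTS enzymes without the protease domain, and several bind fibrillin microfibrils. Adamtsl2 (chr2:27079336-27108981), whose human counterpart is mutated in geleophysic dysplasia, had 20.2, 17.6 and 31.3 FPKM in knockouts, against 2.26, 2.79 and 3.00 in controls, 8.57 times the control mean (log2 fold change 2.85, SE 0.22, limma adjusted p = 0.00034). Adamtsl5 was the most abundant of this family in controls, with 35.5, 22.2 and 22.7 FPKM in knockouts, against 20.1, 20.7 and 24.3 in controls, where knockout replicate 1 was high and the groups overlapped (log2 fold change 0.27, limma adjusted p = 0.32). Adamtsl2 lay far below Adamtsl5 in each control and exceeded it in knockout replicate 3 alone. Adamtsl4, known for its role in the eye's zonular fibres, had 2.56, 5.73 and 3.15 FPKM in knockouts, against 7.92, 5.68 and 5.21 in controls. Knockout replicate 2 lay among the controls and Adamtsl4 did not pass (log2 fold change -0.70, limma adjusted p = 0.088), but leaving that library out brought its limma adjusted p to 0.0097. Adamtsl3 had 1.26 to 1.60 FPKM in knockouts and 1.48 to 2.64 in controls (log2 fold change -0.26, limma adjusted p = 0.37), and Adamtsl1, with 0.483 to 1.37 FPKM in knockouts and 0.596 to 0.797 in controls, was not tested. The Adamtsl sum was 61.0, 48.2 and 58.9 FPKM in knockouts, against 32.6, 32.4 and 34.8 FPKM in controls. Most of that difference lay in Adamtsl2, and the median log2 fold change of the tested Adamtsl genes was 0.004.

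**Figure D3:**
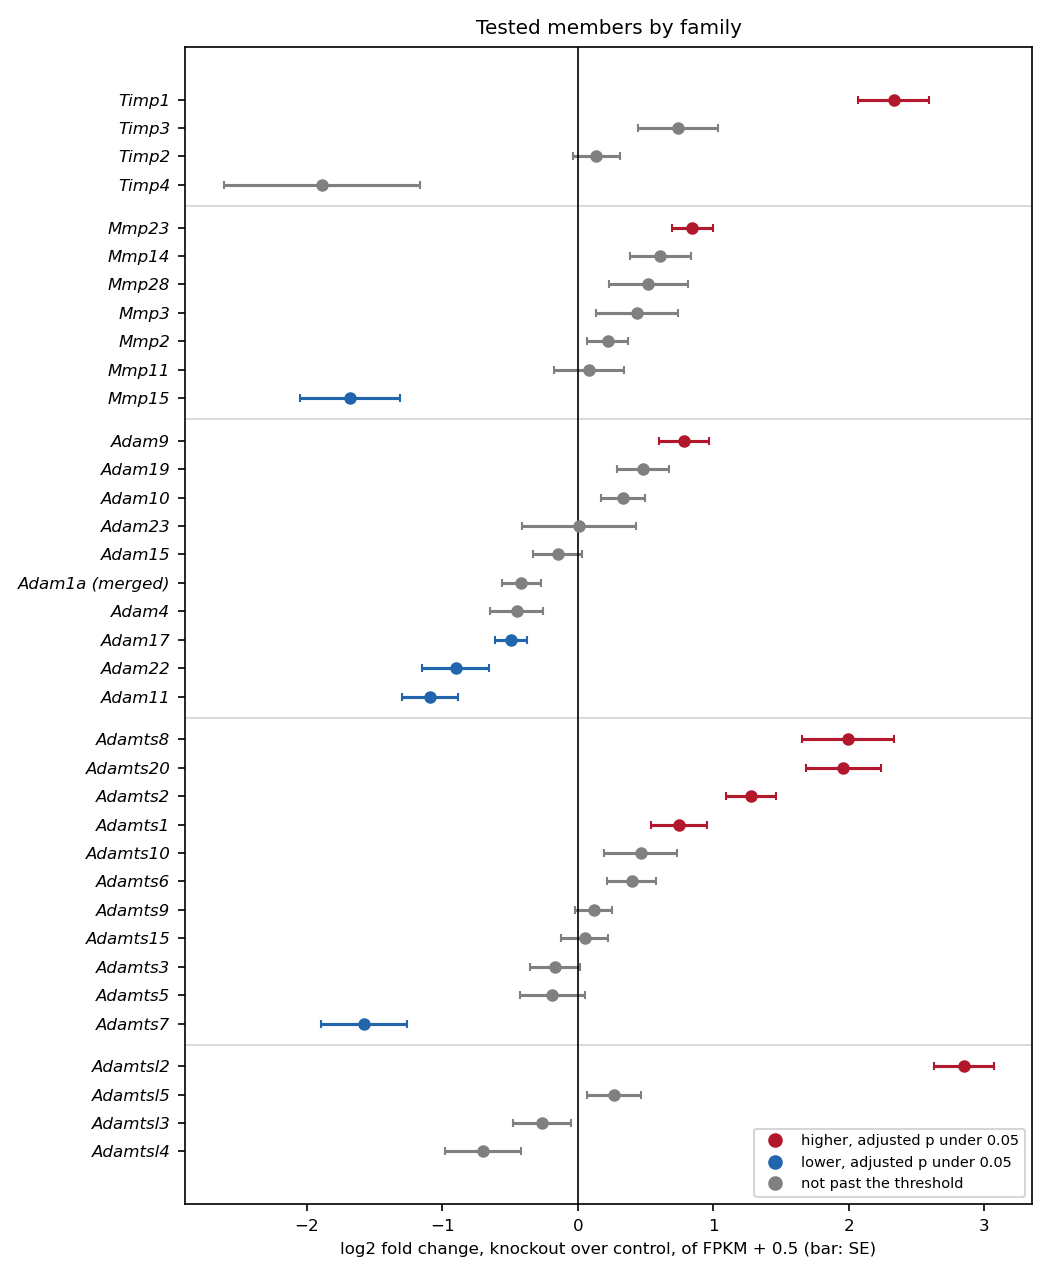
Log2 fold change of FPKM + 0.5, knockout over control, with its SE as a bar, for the 36 tested members grouped by family from Timp at the top to Adamtsl at the bottom. Red points rose, blue points fell and grey points did not pass the test; Adam1a is the locus merged with Mapkapk5, and Timp4 has the widest bar (SE 0.73).

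Among the ADAMs the sheddase Adam9 rose, and 3 genes fell: the sheddase Adam17 and the non-enzymatic Adam11 and Adam22. The other 6 of 10 tested loci did not pass. Adam9 (chr8:24949611-25017040), which cuts cell-surface growth factor precursors, had 21.2, 19.1 and 31.0 FPKM in knockouts, against 12.8, 13.5 and 13.7 in controls, with every knockout above every control (log2 fold change 0.78, SE 0.18, limma adjusted p = 0.015). The call was lost without control replicate 1 (adjusted p = 0.056) or 2 (0.051). Adam17 (chr12:21323509-21373632) encodes TACE, the enzyme that releases tumour necrosis factor, and had 9.07, 7.28 and 7.92 FPKM in knockouts, against 11.8, 10.9 and 12.0 in controls. All knockouts lay below all controls (log2 fold change -0.49, SE 0.12, limma adjusted p = 0.018). That call did not hold when any single control was left out (adjusted p = 0.065, 0.052 and 0.068 for replicates 1 to 3) or after scaling to equal sums (0.15). Adam10, the sheddase that cuts Notch receptors, had 7.40 to 11.3 FPKM in knockouts and 6.65 to 7.14 in controls, without overlap but short of the threshold (log2 fold change 0.33, limma adjusted p = 0.15).

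Adam11 and Adam22 belong to a group of ADAMs that lack an active catalytic site, and ADAM22 is a receptor for the secreted protein LGI1 in the nervous system. Adam11 (chr11:102761413-102780263) had 0.353, 0.524 and 0.319 FPKM in knockouts, against 1.77, 1.10 and 1.39 in controls (log2 fold change -1.09, SE 0.21, limma adjusted p = 0.007). Adam22 (chr5:8072347-8368312) had 1.45, 3.15 and 2.68 FPKM in knockouts, against 4.36, 5.78 and 4.32 in controls (log2 fold change -0.90, SE 0.25, limma adjusted p = 0.027). In each gene the knockouts lay below the controls, and Adam11 was tested only because the controls reached 1 FPKM. The Adam22 call did not hold when any single control was left out (adjusted p = 0.060, 0.093 and 0.060 for replicates 1 to 3), after scaling to equal sums (0.062) or with no filter (0.066). Adam23, the third of this kind, had 0.428 to 2.06 FPKM in knockouts and 0.653 to 1.91 in controls, wide and overlapping (log2 fold change 0.01, limma adjusted p = 0.99). Its log2 fold change lay between -0.34 and 0.39 with 1 library left out.

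Adam15 was the most abundant single-gene ADAM in controls, with 16.03, 21.9 and 14.3 FPKM in knockouts, against 21.7, 18.8 and 17.0 in controls, and the groups overlapped (log2 fold change -0.15, limma adjusted p = 0.55). Adam19, which is needed for heart valve and septum formation in mice, had 9.70, 11.6 and 15.8 FPKM in knockouts, against 9.81, 8.19 and 7.77 in controls. Knockout replicate 1 lay among the controls and Adam19 did not pass (log2 fold change 0.48, limma adjusted p = 0.084), but did without that library (log2 fold change 0.64, adjusted p = 0.043) and after scaling to equal sums (log2 fold change 0.72, adjusted p = 0.022). The locus that carries the names Adam1a and Mapkapk5 had 29.6, 28.0 and 36.0 FPKM in knockouts, against 41.6, 46.4 and 36.9 in controls. Its fragments cannot be assigned to either gene, and it did not pass (log2 fold change -0.41, limma adjusted p = 0.062), but did without knockout replicate 3 (adjusted p = 0.028). Adam4 had 0.490 to 0.928 FPKM in knockouts and 1.07 to 1.17 in controls, without overlap, passed the filter through the controls alone and did not pass the test (log2 fold change -0.45, limma adjusted p = 0.11).

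Of the 23 ADAM loci not tested, 15 were at 0 in every library. Adam12, an ADAM of regenerating muscle and activated fibroblasts, had 1.90, 1.46 and 0.416 FPKM in knockouts, against 0.167, 0.0631 and 0.575 in controls, with knockout replicates 1 and 2 above and replicate 3 within the controls. Adam33 had 0.483 to 2.02 FPKM in knockouts and 0.559 to 0.706 in controls, its highest value in knockout replicate 2. Adam8, an ADAM of leukocytes, had 0.394 to 0.806 FPKM in knockouts and 0.443 to 0.671 in controls. Adam32 had 0.171 to 0.400 FPKM in knockouts and 0.262 to 0.610 in controls. All 3 genes overlapped between the groups. Among untested MMPs, Mmp19 had 0.883 to 1.03 FPKM in knockouts and 0.583 to 0.966 in controls. Mmp16, the membrane-anchored MT3-MMP, had 0.140 to 0.687 FPKM in knockouts and 0.137 to 0.577 in controls. Mmp17, the membrane-anchored MT4-MMP, had 0.275 to 0.620 FPKM in knockouts and 0.329 to 0.383 in controls. In all 13 untested members reached 0.5 FPKM in any library, and each is named here or above. The other 14 untested members that were listed above 0, Mmp8, Mmp9, Mmp13 and Adamts14 among them, reached 0.457 FPKM at most.

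Regulators of these enzymes, fixed as a list of 20 genes with earlier results of these data known, showed 5 of 15 tested genes higher and 1 lower, with 9 not past the test and a median log2 fold change of 0.30. The share called is close to the 35.7% of all loci, and nothing is read from it. Pcsk6, a furin-like convertase that activates precursors, fell, with 7.74, 5.94 and 8.90 FPKM in knockouts, against 26.1, 22.6 and 18.4 in controls (log2 fold change -1.52, limma adjusted p = 0.0013). Pcsk5, of the same family, rose, with 1.31, 1.24 and 1.27 FPKM in knockouts, against 0.574, 0.589 and 0.556 in controls (log2 fold change 0.72, limma adjusted p = 0.013). It was tested only because the knockouts reached 1 FPKM, so a difference was built in. Furin, the convertase of membrane-type MMPs and many ADAMs, did not pass, with 10.3 to 17.4 FPKM in knockouts and 12.9 to 18.0 in controls. Ecm1, a matrix protein that binds MMP9, had 14.8, 39.2 and 16.3 FPKM in knockouts, against 10.6, 11.2 and 6.58 in controls, highest in knockout replicate 2 (log2 fold change 1.16, limma adjusted p = 0.047). Its rise was lost without any one control or knockout replicate 3 (adjusted p = 0.051 to 0.15) and without a variance trend, without a filter or after quantile normalization (adjusted p = 0.053, 0.10 and 0.065). Reck, a membrane-bound MMP inhibitor outside the Timp family, had 1.34 to 2.16 FPKM in knockouts and 1.01 to 1.45 in controls and did not pass (log2 fold change 0.30, limma adjusted p = 0.28).

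Partners and ligands of the ADAMs, 27 listed genes, had 7 of 17 tested higher and 2 lower, with a median log2 fold change of 0.05, beside 16.1% higher and 19.5% lower among all loci. Tspan17, a tetraspanin that escorts ADAM10 to the cell surface, had 12.1, 8.63 and 22.0 FPKM in knockouts, against 3.65, 4.74 and 6.10 in controls (log2 fold change 1.39, limma adjusted p = 0.016). The call was lost without control replicate 1 (adjusted p = 0.058). Cxcl16, a membrane chemokine shed by ADAM10, had 6.11, 8.59 and 7.19 FPKM in knockouts, against 3.17, 3.69 and 3.62 in controls (log2 fold change 0.96, limma adjusted p = 0.0032). Tnfrsf1a, a tumour necrosis factor receptor shed by ADAM17, had 12.2, 17.5 and 13.9 FPKM in knockouts, against 8.21, 7.30 and 7.45 in controls (log2 fold change 0.87, limma adjusted p = 0.0048). Both rose, while Adam10 did not pass and Adam17 fell with the limits given above. Shedding was not measured. Lgi1, the ligand of ADAM22 and ADAM23, fell, with 0.207, 0.123 and 0.149 FPKM in knockouts, against 1.03, 2.26 and 1.82 in controls (log2 fold change -1.70, limma adjusted p = 0.0028). It was tested only because the controls reached 1 FPKM, so a difference was built in.

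Matrix substrates, 20 listed genes, had 7 of 14 tested higher and 0 lower, with a median log2 fold change of 0.62, beside the same shares of all loci. Comp, a substrate of ADAMTS7, had 3.64, 7.39 and 9.95 FPKM in knockouts, against 0.673, 0.389 and 0.50 in controls (log2 fold change 2.78, SE 0.33, limma adjusted p = 0.0011). Only the knockouts took it past the filter, so a difference was built in. Bgn, which encodes the small proteoglycan biglycan, had 95.9, 114 and 90.7 FPKM in knockouts, against 27.4, 28.0 and 26.4 in controls (log2 fold change 1.85, limma adjusted p = 0.00024). Eln, which encodes elastin, a substrate of MMP2, MMP9 and MMP12, had 25.1, 24.7 and 47.7 FPKM in knockouts, against 12.2, 8.93 and 8.14 in controls (log2 fold change 1.63, limma adjusted p = 0.0043). Fn1, which encodes fibronectin, had 17.4, 29.1 and 10.5 FPKM in knockouts, against 5.77, 5.57 and 4.77 in controls (log2 fold change 1.62, limma adjusted p = 0.0081). All 4 genes lay higher in every knockout than in every control. They were named for the largest changes past the threshold, so this separation was largely built in. Fbn1, which encodes the fibrillin that ADAMTSL2 binds, was named after its values were seen, with 47.0, 36.2 and 33.4 FPKM in knockouts, against 14.5, 15.7 and 17.5 in controls (log2 fold change 1.25, limma adjusted p = 0.0015). Vcan, the versican cut by ADAMTS1 and ADAMTS20, was also named then, with 8.36, 5.38 and 5.02 FPKM in knockouts, against 3.49, 3.92 and 4.11 in controls (log2 fold change 0.61, limma adjusted p = 0.044). The Vcan call did not hold under 7 of the alternatives, among them each single control left out (adjusted p = 0.13, 0.10 and 0.089 for replicates 1 to 3).

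**Figure D4:**
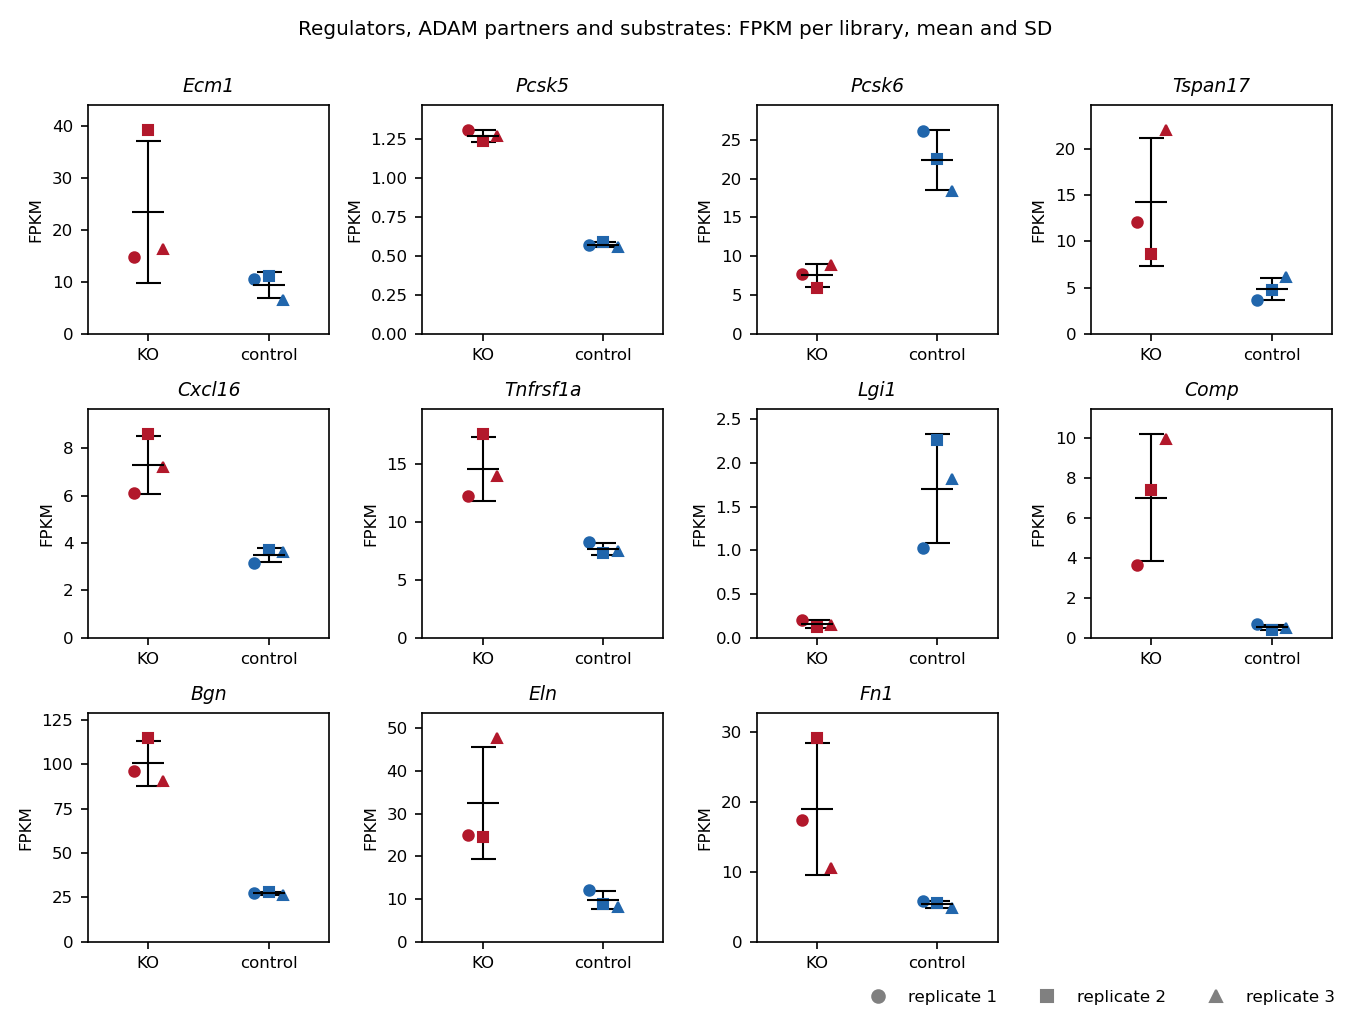
FPKM of 11 regulators, ADAM partners and matrix substrates in each knockout (KO, left) and control (right) library, with group mean and SD as black bars and a marker shape per replicate. Pcsk6 and Lgi1 were lower in every knockout, and the other 9 genes were higher in every knockout. The genes were chosen for large changes past the threshold, so this separation was largely built in.

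Overlapping genes limit the reading of the inhibitors. Timp1, Timp3 and Timp4 lie within the spans of the synapsin genes Syn1, Syn3 and Syn2 in the RefSeq annotation of GRCm38.p6. Timp1 is at 20870166 to 20874737 on chromosome X, Timp3 at 86300412 to 86349505 on chromosome 10, and Timp4 at 115244444 to 115252205 on chromosome 6. Whether strand was used in counting is not given in the sources used here. The synapsin loci were low, at 0 to 0.0224 FPKM for Syn1. Syn3 had 0.127 to 0.169 FPKM in knockouts and 0.184 to 0.643 in controls. Syn2 had 0.682 to 1.35 FPKM in knockouts and 0.411 to 0.823 in controls. All lay below their Timp gene except Syn2 beside Timp4 in knockout replicate 2 (1.35 against 1.04 FPKM).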

How the data were processed

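The deposited values are FPKM for each locus, 1 library per file, per the file headers. Total RNA was depleted of rRNA and primed with random hexamers, per the labels' protocols. The submitters' processing notes name, in no stated order, Cuffdiff, Cufflinks 2.2.1, StringTie 1.1.0, HISAT 0.1.6, HISAT2 2.0.1, bedtools, Picard 1.23 and SAMtools 1.3, with the builds GRCm38 and mm10. What each tool did, whether libraries were scaled to each other and whether strand was used is not given in the sources used here. Because FPKM carry no read totals, neither count models nor counting intervals were applied. Samples are numbered within each group without naming separate animals, and p-values therefore measure only the spread among these samples.

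Values were analysed as log2(FPKM + 0.5) without scaling, over the 12181 of 44450 loci that reached 1 FPKM in 3 or more of the 6 libraries, with limma 3.58.1 in R 4.3.3 (empirical Bayes, mean-variance trend, two-sided, Benjamini-Hochberg adjustment over these loci, threshold 0.05). Relative depth is the most frequent ratio of values at pseudogene and small RNA loci under 1 FPKM. On simulated libraries of 12181 loci, 65% of 2-fold and 88% of 4-fold changes were recovered, and 3.77% of calls were unchanged loci. The simulation changed 100 loci at each size and let each locus vary on its own. In the data 35.7% of loci were called and knockout replicate 2 had large shared shifts, so these rates need not hold for the calls here. No pairing of the samples by replicate number was seen (values in the closing section). The alternatives were other pseudocounts, filters, scalings and variance models, the replicate block and each library left out. Sensitivity of genes added after seeing the data was run in the same way.

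The members, lists and tests were chosen with earlier results of these data known. Every tested member is named. Values per library are given for each tested Timp and Mmp gene, each member past the threshold and the 3 most abundant Adam, Adamts and Adamtsl loci. From each list of other genes the 4 with the largest change among those past the threshold are named, except 1 gene that is not reported here; Reck, Furin, Fbn1, Vcan and the marker genes were added after their values were seen. All 84 members were found as RefSeq symbols. The 6 libraries of mitochondrial RNA ends were not analysed here.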

Additional observations from a re-analysis of the deposited data

How the results depend on the processing

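Over all loci 1966 were higher and 2377 lower. Scaling to equal sums gave 3229 higher and 1400 lower, and leaving out 1 library gave 1212 to 2153 higher and 1409 to 2389 lower. Among the members the 8 higher became 6 to 11 over the alternatives, and the 5 lower became 3 with scaling to equal sums and 3 to 7 with 1 library left out (3 without any one control). Without knockout replicate 2 there were 8 higher and 6 lower, and all 13 calls were made again. All 13 were also made with a pseudocount of 0.1 or 1, quantile normalization, the replicate block and no variance trend. With no filter Adamts1 and Adam22 were lost, and with a filter of 2 FPKM the only calls not made were those of Adam11, Adamts20 and Adamts8, which were then not tested. Scaling to equal sums lost Adam17 and Adam22 and added Adam19, Mmp14 and Mmp2. The cause was not tested.

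The replicate block gave 8 members higher and 5 lower, as without it. Deviations of same-numbered samples correlated at -0.08, -0.06 and -0.01, and 0 of 3 knockout libraries correlated best with their own number, so the samples share only a number.

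The inhibitor-to-protease difference of 0.0900 (knockout minus control) was 0.530 with Mmp genes alone as proteases, 0.0966 over tested members, and 0.0285 to 0.134 with 1 library left out. Added after seeing the data, it was 0.0740 without the merged Adam1a and Mapkapk5 locus and 0.0659 without that locus and Adam11, Adam22 and Adam23.

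Directions reversed only in genes that had not passed. Adam23 was at -0.02 with a pseudocount of 0.1, -0.03 after quantile normalization and -0.34 to 0.39 with 1 library left out. After scaling to equal sums Adamts5 was at 0.02, Adam15 at 0.08 and Adamts3 at 0.03. With 1 library left out Mmp11 ranged from -0.18 to 0.26, Timp2 from -0.01 to 0.26, Adamts5 from -0.43 to 0.04 and Adamts15 from -0.02 to 0.18. Depth limits values near 0, above all in controls.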
